A study of Mus musculus with 32 samples.

Results

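Open chromatin was examined at the loci of 6 genes that mark the lining of the liver sinusoids: Stab1, Stab2, Lyve1, Mrc1, Cdh5 and Pecam1. The data are 2 lists of ATAC-seq peaks, intervals where a transposase cut accessible DNA, 1 from liver endothelial cells and 1 from Kupffer cells, the macrophages that reside in the sinusoids. A peak belonged to a locus when its centre lay in a fixed mm9 window named for the gene; the windows were not checked against an mm9 annotation. The windows covered 840 kb in all and held 297 of the 229137 peaks in both lists, 130 of 91453 endothelial peaks and 167 of 137684 Kupffer peaks. Peaks with an overlap of 1 bp or more between the lists counted as shared, and all others as endothelial-only or Kupffer-only (together, restricted).

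The lists stem from male C57BL/6J mice on normal chow. The study's design text places the loss of REV-ERBα and REV-ERBβ, repressors of the circadian clock, in the hepatocytes of adult mice; the profiled endothelial and Kupffer cells are thus not the cells named as the knockout. The labels give 32 libraries in 8 groups of 4 replicates: REV-ERB a/b double knockout and WT mice, each sampled at ZT22 and ZT10 (zeitgeber time, hours after lights on), for each cell type. They do not name the agent that deleted the genes, a control treatment or the age of the mice. Each list carries positions alone and no value per library, so neither genotype nor time was compared, no value below has a replicate, and no p-value is given. The read depth is unknown, and the purity of the isolated cells was not tested. Where a list has no peak, none was called, which leaves the accessibility of that site in that cell type unmeasured.

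Sinusoidal endothelial cells filter the blood that passes the liver and clear macromolecules from it by receptor-mediated endocytosis. The stabilins, encoded by Stab1 and Stab2, are large scavenger receptors, and stabilin-2 takes up hyaluronan. Lyve1 encodes another hyaluronan receptor, best known from lymphatic vessels, and Mrc1 the mannose receptor, which endothelial cells of the sinusoid and macrophages both use to take up glycoproteins. Cdh5 encodes VE-cadherin, the adhesion molecule of endothelial adherens junctions. Pecam1 encodes a homophilic adhesion molecule at endothelial cell contacts that leukocytes carry as well.

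The promoters of these genes are shown as the sequence context of the loci. The RefSeq promoter table held Stab1, Stab2 and Mrc1, 3 of the 6 genes, on GRCm38.p6. The 250 bases before the annotated start are printed 5′ to 3′ on the strand of the gene, minus on chromosome 14 for Stab1, minus on chromosome 10 for Stab2 and plus on chromosome 2 for Mrc1. Capitals mark a match to any of 8 motifs.
Stab1: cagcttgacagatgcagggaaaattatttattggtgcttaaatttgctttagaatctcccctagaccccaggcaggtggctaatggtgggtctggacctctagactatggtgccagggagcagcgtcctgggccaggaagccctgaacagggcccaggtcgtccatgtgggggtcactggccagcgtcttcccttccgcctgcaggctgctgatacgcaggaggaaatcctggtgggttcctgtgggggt
Stab2: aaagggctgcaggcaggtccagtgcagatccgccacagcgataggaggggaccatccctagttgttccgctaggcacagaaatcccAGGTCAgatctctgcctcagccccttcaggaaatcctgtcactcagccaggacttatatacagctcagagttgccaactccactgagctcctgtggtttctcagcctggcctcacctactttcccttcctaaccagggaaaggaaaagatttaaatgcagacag
Mrc1: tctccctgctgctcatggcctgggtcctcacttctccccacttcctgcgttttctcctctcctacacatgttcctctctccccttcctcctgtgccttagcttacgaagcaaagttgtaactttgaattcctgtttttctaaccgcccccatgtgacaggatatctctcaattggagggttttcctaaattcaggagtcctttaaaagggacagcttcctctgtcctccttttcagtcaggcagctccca
The motifs, searched on both strands, were the ETS core CCGGAA, ACAGGAAGT for ERG, GAGGAAGT for PU.1, CACGTG for the E-box, TGANTCA for AP-1, the core site AGGTCA of ROR and REV-ERB receptors, AGATAA for GATA factors and ACAAAG for SOX factors. Stab2 held the only match among the 3, an AGGTCA whose first base is at position -164 relative to the start. The same letters occur in 14.0% of the 32851 promoters in the table. The peaks are on mm9 and the promoters on another build, so whether a peak covers one of these stretches was not analysed here. A match is a run of letters and not a measured binding site.

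The endothelial-only share of restricted peaks ran from 16.7% at Mrc1 to 58.3% at Cdh5. Over the 6 loci, 67 of the 171 restricted peaks were endothelial-only, or 39.2% (exact Clopper-Pearson 95% binomial interval 31.8% to 46.9%). The background share was 31.2% of the 122013 restricted peaks in the lists as a whole, and 31.2% (31.0% to 31.5%) with the 6 loci left out. The intervals cover counting error and treat peaks as independent, which neighbouring peaks need not be. Cdh5, Stab2, Stab1 and Lyve1 had shares of 50% or more, and Pecam1 and Mrc1 had shares below the background.

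In the order of the shares, Cdh5 had 7 endothelial-only and 5 Kupffer-only peaks, or 58.3% endothelial-only (27.7% to 84.8%). Stab2 had 23 and 20, or 53.5% (37.7% to 68.8%). Stab1 had 11 and 11 and Lyve1 8 and 8, both 50%, with intervals of 28.2% to 71.8% and 24.7% to 75.3%. These neighbours in the order did not differ beyond their intervals. Pecam1 had 12 endothelial-only and 30 Kupffer-only peaks, or 28.6% (15.7% to 44.6%), close to the background. Mrc1 had 6 and 30, or 16.7% (6.37% to 32.8%). Among the 6, the interval of Stab2 lay above the background share, and the other 5 intervals included it. The intervals of Stab2 and Mrc1 did not overlap each other.

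**Figure D1:**
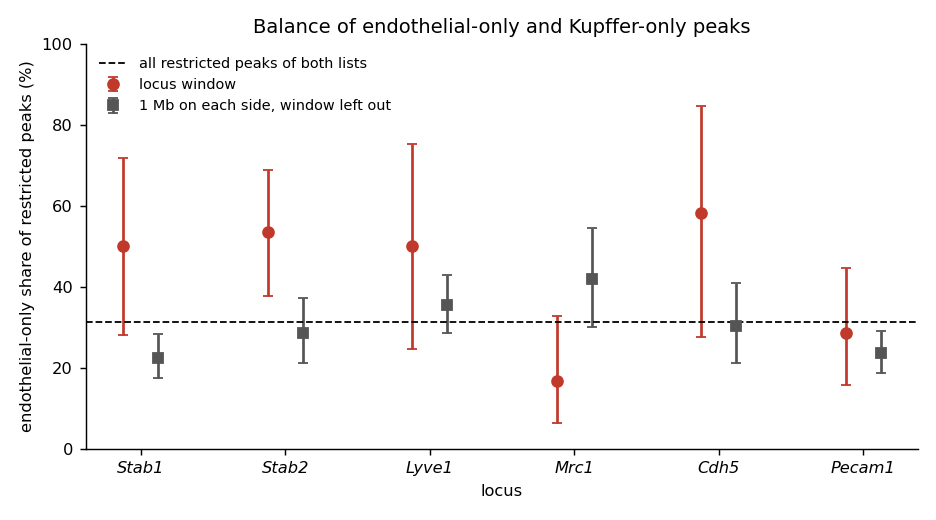
Endothelial-only share of restricted peaks (y axis, %) at each locus (x axis), in the window (circles) and in 1 Mb on each side of it (squares), with exact 95% binomial intervals; the dashed line is the share over both lists, 31.2%. Mrc1 has the lowest window share, 16.7%, and the highest share in its surroundings, 42.0%.

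Grouped by role, the 4 receptor loci held 48 endothelial-only and 69 Kupffer-only peaks, an endothelial-only share of 41.0% (32.0% to 50.5%). The junction loci Cdh5 and Pecam1 held 19 and 35, a share of 35.2% (22.7% to 49.4%). The groups did not differ beyond their intervals, and each joined loci of unlike balance. Without Mrc1, the receptor loci had 42 endothelial-only and 39 Kupffer-only peaks, or 51.9% (40.5% to 63.1%). Mrc1 had the lowest share of the 6 loci, so leaving it out raises the share by construction, and the interval does not allow for that choice. Without Pecam1, the junction group is Cdh5 alone, at 58.3% (27.7% to 84.8%).

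The share of each list that was restricted views the loci from the side of a single cell type, where their order differed. Of the endothelial peaks in the windows, 67 of 130 were endothelial-only, or 51.5% (42.6% to 60.4%), against a background of 41.7% in the endothelial list. Of the Kupffer peaks, 104 of 167 were Kupffer-only, or 62.3% (54.5% to 69.6%), against a background of 60.9% in the Kupffer list. Kupffer-only peaks made up 85.7% of the Kupffer peaks at Mrc1 (69.7% to 95.2%) and 29.4% at Cdh5 (10.3% to 56.0%). Endothelial-only peaks made up 62.2% of the endothelial peaks at Stab2 (44.8% to 77.5%) and 38.9% at Cdh5 (17.3% to 64.3%). Stab1, Lyve1 and Mrc1 had 50% each and Pecam1 48%, so Mrc1 did not stand apart among the endothelial peaks. Cdh5 was thus the locus with the largest shared part, 11 of 18 endothelial peaks (61.1%) and 12 of 17 Kupffer peaks (70.6%).

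The windows were dense in peaks of every class. Endothelial-only peaks reached 7.98 per 100 kb over the 6 loci, against 1.48 in the genome, and Kupffer-only peaks reached 12.4, against 3.26. The windows were placed on chosen genes. The 1 Mb on each side of a window gives a local comparison, but it was not centred on a chosen gene. Stab2 had 10.0 endothelial-only peaks per 100 kb in its window and 1.85 in its surroundings. At Stab1 the values were 12.2 and 2.70, at Lyve1 10.0 and 3.25, at Cdh5 6.36 and 1.40, at Pecam1 7.50 and 3.15 and at Mrc1 3.53 and 1.45. The windows exceeded their surroundings at each of the 6 loci, and the part of the choice of genes in this was not tested.

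Kupffer-only peaks differed more between the loci. Mrc1 had 17.6 Kupffer-only peaks per 100 kb in its window and 2 in its surroundings. Pecam1 had 18.8 in its window, in surroundings that were themselves rich, with 10.2. Stab1 had 12.2 against 9.30, Lyve1 10.0 against 5.90, Stab2 8.70 against 4.60 and Cdh5 4.55 against 3.20. Among the 6 loci, the gap between window and surroundings in Kupffer-only peaks was largest at Mrc1.

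**Figure D2:**
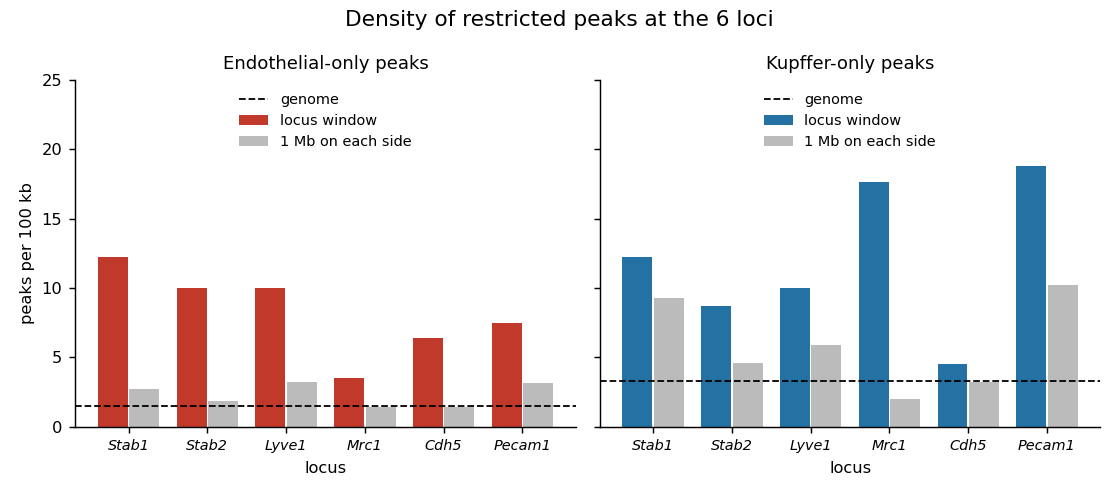
Endothelial-only (left) and Kupffer-only (right) peaks per 100 kb (y axis) at each locus (x axis), in the window (coloured bars) and in 1 Mb on each side (grey bars); dashed lines give the genome values, 1.48 and 3.26. Mrc1 has the lowest endothelial-only bar among the windows, 3.53, and the second highest Kupffer-only bar, 17.6.

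Each window was also set beside all back-to-back windows of its own length on chromosomes 1 to 19 and X that held at least 1 peak. For Stab2, 0.503% of 8951 windows of 230 kb held at least 23 endothelial-only peaks, and 16.1% held at least 20 Kupffer-only peaks. For Stab1, 1.17% of 19216 windows held at least 11 endothelial-only peaks and 11.0% at least 11 Kupffer-only peaks. For Lyve1, at least 8 endothelial-only peaks occurred in 2.97% of 21101 windows and at least 8 Kupffer-only peaks in 18.3%. For Cdh5, 8.18% of 16381 windows held at least 7 endothelial-only peaks and 42.8% at least 5 Kupffer-only peaks. These 4 loci lay higher among the windows in endothelial-only than in Kupffer-only peaks.

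Mrc1 and Pecam1 lay the other way round. At least 6 endothelial-only peaks occurred in 20.6% of 11497 windows of the length of Mrc1, and at least 30 Kupffer-only peaks in 1.21%. At Pecam1, 3.70% of 12090 windows held at least 12 endothelial-only peaks and 1.03% at least 30 Kupffer-only peaks. Pecam1 was therefore high in both classes, whereas Mrc1 was high in Kupffer-only peaks. These shares describe where a window lies among all windows, most of which were not chosen around a gene, and are not chance levels.

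The window of Stab2, the hyaluronan-clearing scavenger receptor, ran over 230 kb of chromosome 10 (86270001 to 86500000). Its endothelial-only and Kupffer-only peaks were split differently about the midpoint. Of the 23 endothelial-only peaks, 16 lay on the high-coordinate side of the window's midpoint and 7 on the other, whereas 6 of the 20 Kupffer-only peaks lay on the high-coordinate side and 14 on the low one. Shared endothelial peaks were split like the endothelial-only ones, 10 on the high-coordinate side and 4 on the low one. The longest run, 7 endothelial-only peaks with no Kupffer-only peak between them, reached from chr10:86393782-86393932 to chr10:86423806-86424003, over 30.2 kb that also held 3 shared sites. A further 4 endothelial-only peaks lay between 200 and 210 kb from the window start, the fullest 10 kb stretch of that class at the locus.

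The widest restricted peak of all 6 loci was at Stab2, an endothelial-only peak of 462 bp at chr10:86455369-86455830, 1719 bp from the nearest Kupffer peak. The widest Kupffer-only peak of the locus, 388 bp at chr10:86342011-86342398, lay 202 bp from an endothelial-only peak. Next to the widest endothelial-only peak was the shared site with the widest endothelial interval of the locus, 362 bp at chr10:86453437-86453798, where the Kupffer interval measured 219 bp. Endothelial-only peaks at Stab2 had a median distance of 4073 bp from the nearest Kupffer peak, the longest among the 6 loci, and the largest distance was 10846 bp. In the gene order of GRCm38.p6, the protein-coding neighbours of Stab2 are Nt5dc3 and 1700113H08Rik. No mm9 annotation was used, so no peak was assigned to a promoter, exon or intron of any gene named here.

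Stab1, the other stabilin, had a window of 90 kb on chromosome 14 (31920001 to 32010000) with equal numbers of restricted peaks. Endothelial-only peaks ran longest on the low-coordinate side of its midpoint, with only the last peak of the run beyond it. Kupffer-only peaks ran longest at its high-coordinate end. The longest endothelial-only run was 4 peaks between 31951147 and 31966564, the last of them centred 14.0 kb from the one before. The longest run of the locus was of 6 Kupffer-only peaks, from chr14:31995964-31996251 to chr14:32009261-32009484, over 13.5 kb that also held 4 shared endothelial peaks. The first of these 6 was the widest Kupffer-only peak, at 288 bp, 73 bp from an endothelial peak. Of the 11 Kupffer-only peaks at Stab1, 8 (72.7%) lay within 1 kb of an endothelial peak, against 22.5% of all Kupffer-only peaks. The part of the density of peaks in this was not tested. The widest endothelial-only peak was 249 bp wide at chr14:31981758-31982006. The widest shared endothelial interval of the 6 loci was also here, 397 bp at chr14:31973790-31974186, with a Kupffer interval of 226 bp. The neighbours of Stab1 in gene order are Nt5dc2 and Nisch, and the peaks at the high-coordinate end cannot be told apart from those of neighbouring genes without an mm9 annotation.

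Lyve1, on chromosome 7 (117960001 to 118040000), held its classes in succession at the low-coordinate end of its 80 kb window. The first 3 restricted peaks were endothelial-only, followed by a run of 5 Kupffer-only peaks from chr7:117966717-117966867 to chr7:117983967-117984192, over 17.5 kb with no endothelial peak. Shared endothelial peaks lay between 27.6 and 75.4 kb from the window start, 8 in all. The shared site with the widest endothelial interval, 358 bp at chr7:118006477-118006834, had a Kupffer interval of 231 bp. Endothelial-only peaks at Lyve1 were narrow, with a median width of 151 bp, the most frequent width over both lists, and 5 of 8 at exactly that width. The widest endothelial-only peak was 281 bp at chr7:117964780-117965060 and the widest Kupffer-only peak 264 bp at chr7:118021663-118021926. None of the 8 endothelial-only peaks of this locus, a small number, lay within 1 kb of a Kupffer peak, against 25.9% of all endothelial-only peaks. Rnf141 and Mrvi1 flank Lyve1 in gene order.

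**Figure D3:**
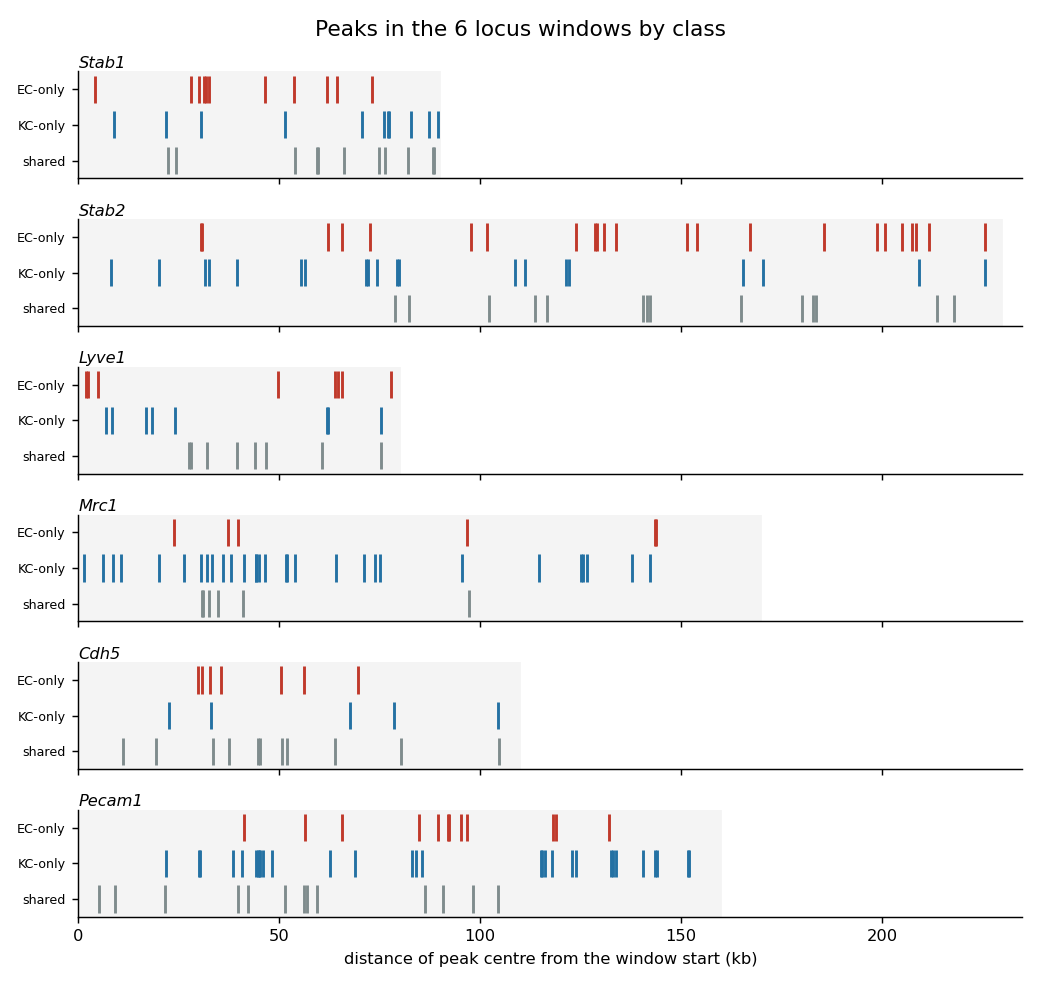
Position of each peak centre in kb from the start of its window (x axis) at the 6 loci, by class (rows: endothelial-only, EC-only; Kupffer-only, KC-only; shared, at the endothelial interval); grey areas are the windows, 80 to 230 kb long. Endothelial-only and shared peaks gather at high coordinates of Stab2. At Mrc1, 23 of the 30 Kupffer-only peaks lie on the low-coordinate side of the midpoint. A stretch of 54.5 kb that crosses the midpoint of Mrc1 holds 13 of the 30 and no endothelial peak.

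Mrc1, the mannose receptor gene, had the lowest endothelial-only share of the 6 loci. Its window of 170 kb on chromosome 2 (14120001 to 14290000) held 12 endothelial and 35 Kupffer peaks, a ratio of 0.343 endothelial peaks per Kupffer peak against 0.664 in the lists as a whole. A run of 13 Kupffer-only peaks stretched over 54.5 kb, from chr2:14161221-14161443 to chr2:14215525-14215675, with no endothelial peak of any class. It was the longest run of a single class at the 6 loci. Of the 30 Kupffer-only peaks, 14 (46.7%) lay over 10 kb from the nearest endothelial peak, with a largest distance of 25576 bp, against 31.8% of all Kupffer-only peaks in the list.

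Endothelial peaks at Mrc1 were few and close to Kupffer peaks. Shared sites gathered early in the window: 4 of the 6 shared endothelial peaks lay between 30 and 40 kb from its start, a stretch that also held 5 Kupffer-only and 2 endothelial-only peaks. There, an endothelial interval of 335 bp at chr2:14150823-14151157 overlapped a Kupffer interval of 225 bp, which another endothelial peak, of 151 bp, also overlapped. Centres were farther apart at shared sites of Mrc1 than at the other loci, with a median of 90.8 bp over its 6 shared endothelial peaks, and only 3 of these 6 remained shared when the overlap had to cover 50% of both peaks. The widest endothelial-only peak, 406 bp at chr2:14263709-14264114, was the last peak of the window. The widest Kupffer-only peak was 345 bp at chr2:14153132-14153476. Tmem236 and Slc39a12 are the neighbours of Mrc1 in gene order.

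Cdh5, encoding VE-cadherin, differed from the receptor loci in having more shared than restricted peaks of either kind. Shared peaks also prevailed in the endothelial list as a whole, at 58.3%, but not in the Kupffer list, at 39.1%. Its window of 110 kb on chromosome 8 (106590001 to 106700000) held 18 endothelial and 17 Kupffer peaks. Of the 7 endothelial-only peaks, 5 lay on the low-coordinate side of the midpoint, and 3 of them formed the first of 2 runs of that length, the longest of the locus, from chr8:106619681-106619882 to chr8:106622665-106622815. The widest endothelial-only peak, 396 bp at chr8:106645914-106646309, lay 3810 bp from the nearest Kupffer peak, the largest such distance at the locus. The 5 Kupffer-only peaks were spread singly, none sharing a 10 kb stretch with another. The widest of them, 245 bp at chr8:106622964-106623208, lay 122 bp from an endothelial peak. At the shared site with the widest endothelial interval, 322 bp at chr8:106634689-106635010, the Kupffer interval measured 244 bp. With 12 restricted peaks in all, the share at Cdh5 had the widest interval among the 6 loci. Cdh11 and Bean1 are its protein-coding neighbours in gene order.

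Pecam1 held the most Kupffer peaks of the 6 loci, with 25 endothelial and 44 Kupffer peaks in 160 kb of chromosome 11 (106480001 to 106640000). Both classes held runs, although neighbouring restricted peaks were of the same class in 65.9% of pairs, below the 69.4% over chromosomes 1 to 19 and X. Endothelial-only peaks had a longest run of 5, between 106569222 and 106576771, with 1 shared site inside, and 9 of 12 lay on the high-coordinate side of the midpoint. Kupffer-only peaks had a run of 8 over 19.7 kb at the far end, from chr11:106612464-106612659 to chr11:106631921-106632133, without an endothelial peak. A further 7 fell between 40 and 50 kb from the window start, the fullest 10 kb stretch of any class at the 6 loci. That stretch also held the widest endothelial-only peak, 354 bp at chr11:106520898-106521251, which was 67 bp from a Kupffer peak. The widest Kupffer-only peak, 283 bp at chr11:106623498-106623780, lay 11391 bp from the nearest endothelial peak. A shared site at chr11:106519418-106519771 joined an endothelial interval of 354 bp and a Kupffer interval of 335 bp whose centres were 320 bp apart, so that they overlapped only at their ends. Milr1 and Tex2 adjoin Pecam1 in gene order, and the far end of the window cannot be assigned between neighbours here. Chromosome 11 outside the window had an endothelial-only share of restricted peaks of 27.1%, and the 1 Mb on each side had 23.6% (18.6% to 29.2%), close to the 28.6% of the locus.

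Few endothelial-only peaks at these loci lay far from a Kupffer peak. Of the 67 endothelial-only peaks, 22 (32.8%) lay within 1 kb of a Kupffer peak, against 25.9% of all endothelial-only peaks, and 2 (2.99%) lay over 10 kb away, against 29.4%. Of the 104 Kupffer-only peaks, 35 (33.7%) lay within 1 kb of an endothelial peak, against 22.5% of all Kupffer-only peaks, and 19 (18.3%) lay over 10 kb away, against 31.8%. Mrc1 supplied 14 of these 19. The density of peaks in the windows moves with these distances, and its part in them was not tested.

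**Figure D4:**
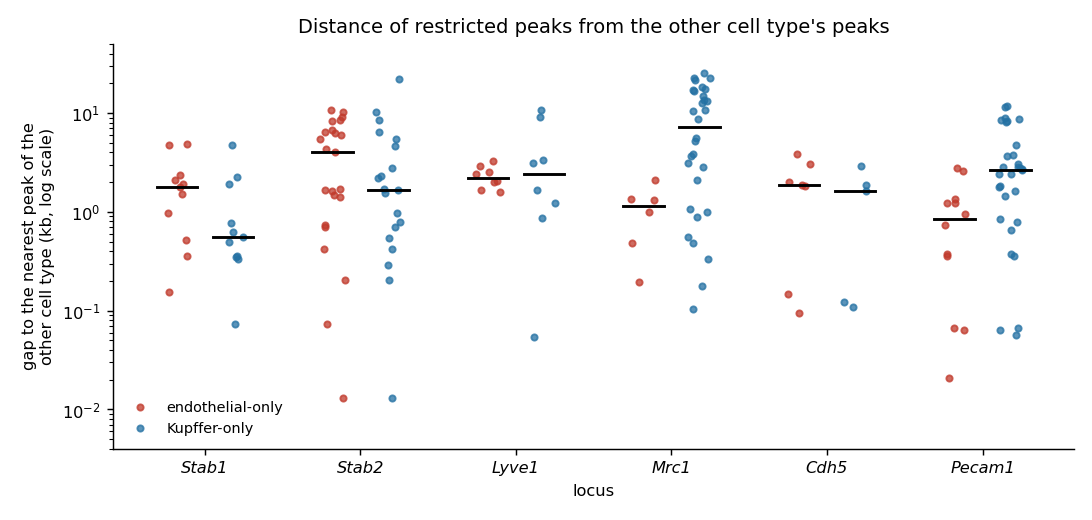
Distance in kb (y axis, log scale) from each restricted peak to the nearest peak of the other list, by locus (x axis) and class (red, endothelial-only; blue, Kupffer-only); bars are medians. Kupffer-only peaks of Mrc1 have the longest median, 7154 bp, and endothelial-only peaks of Pecam1 have a median of 844 bp.

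Neighbouring restricted peaks were of the same class in 74.3% of 35 pairs at Mrc1, 65.9% of 41 at Pecam1, 60% of 15 at Lyve1, 59.5% of 42 at Stab2, 57.1% of 21 at Stab1 and 45.5% of 11 at Cdh5. Over chromosomes 1 to 19 and X the value was 69.4% of 121877 pairs. The share was highest at Mrc1 and Pecam1, where Kupffer-only peaks prevail. Stab1 and Lyve1, with equal numbers of the classes, lay above Cdh5. The part of the class balance in these values was not tested.

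Peak widths differed little between the classes. The medians were 198 bp for endothelial-only, 194 bp for Kupffer-only and 208 bp for shared endothelial peaks at the 6 loci, against 171, 194 and 210 bp over both lists. At each of the 6 loci the widest endothelial interval, restricted or shared, was wider than the widest Kupffer interval. The same held over the whole lists, with 1085 bp for the widest endothelial and 963 bp for the widest Kupffer interval. The pairs of widest intervals, endothelial before Kupffer, were 397 and 355 bp at Stab1, 462 and 388 bp at Stab2, 358 and 264 bp at Lyve1, 406 and 345 bp at Mrc1, 396 and 331 bp at Cdh5 and 354 and 347 bp at Pecam1. Peaks of exactly 151 bp made up 38.8% of the endothelial-only and 27.9% of the Kupffer-only peaks at the loci, against 44.6% and 27.4% over the lists.

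At shared sites the centres of the intervals of the cell types were 35 bp apart in the median, against 24.5 bp over all shared endothelial peaks. When the overlap had to cover 50% of both peaks, 51 of the 63 shared endothelial peaks remained shared. The endothelial interval was wider than its Kupffer partner in 35 of 63 cases (55.6%), narrower in 25 and equal in 3. Over all 53324 shared endothelial peaks it was wider in 22652 (42.5%), narrower in 22655 and equal in 8017. Ties thus also bear on the contrast between 55.6% and 42.5%. The loci did not run alike. The endothelial interval was wider in 7 of 11 cases at Stab1, 8 of 14 at Stab2, 5 of 8 at Lyve1, 4 of 6 at Mrc1 and 7 of 11 at Cdh5, and in 4 of 13 at Pecam1. The merging of libraries into a list also bears on width, and its part in these values was not tested.

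**Figure D5:**
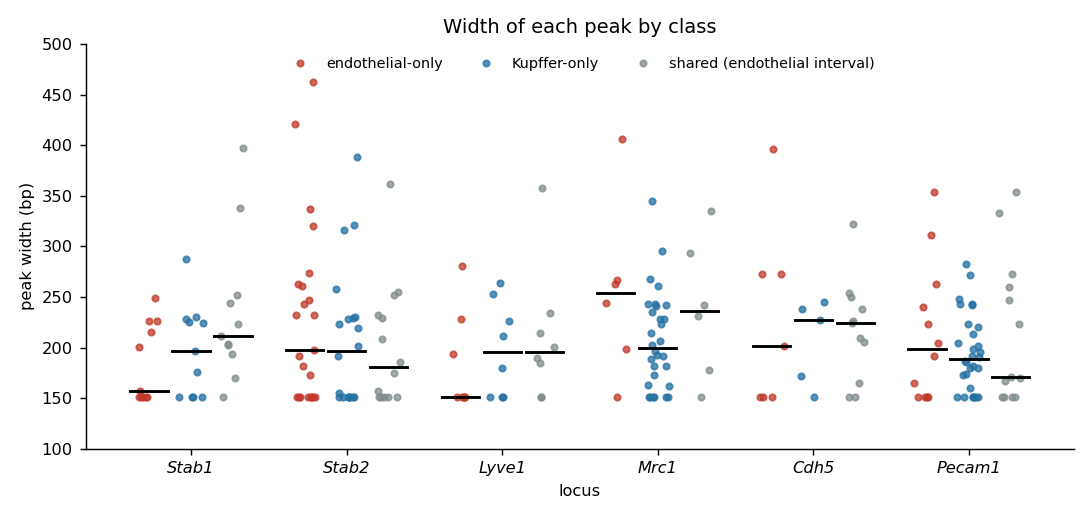
Width in bp (y axis, from 100 bp) of each endothelial-only (red), Kupffer-only (blue) and shared (grey, endothelial interval) peak by locus (x axis); bars are medians. The widest point is an endothelial-only peak of 462 bp at Stab2, and many peaks sit at 151 bp.

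The place of the window edges changed some counts. With 10 kb taken off each edge, Lyve1 went from 8 to 4 endothelial-only and from 8 to 5 Kupffer-only peaks. Stab1 went from 11 to 7 Kupffer-only peaks. With 20 kb added at each edge, Lyve1 had 13 endothelial-only peaks. A few peaks lay next to an edge. At the end of the Cdh5 window a shared site was divided: its Kupffer centre lay 1.5 bp inside and its endothelial centre 65 bp outside. At the start of the Lyve1 window a shared Kupffer peak lay 180 bp outside, and at the end of the Pecam1 window a Kupffer-only peak lay 238 bp outside. At Mrc1 the last peak inside lay 26.1 kb from the window end and the next one outside 126 kb beyond it.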

How the data were processed

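Liver endothelial and Kupffer cells were profiled by ATAC-seq. Per the labels' protocols, isolated cells were transposed in a digitonin mixture and the fragments were amplified. The deposited values are peak coordinates, 1 list per cell type with 3 columns (chromosome, start, end) and no score, count or library; no other unit was used. Per the submitters' processing notes, the authors used Bowtie, HOMER and the build mm9, with no version stated. Not given in the sources used here were the merging of libraries, the threshold and the handling of transposase offsets and short fragments. Merging and depth, which is unknown, can change which peaks are listed and their width.

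Overlaps, windows, runs and distances were computed with NumPy 2.4.6 and pandas 2.3.3 in Python 3.11.15; the numbers of shared peaks equalled those from bedtools 2.31.1. The overlap procedure was also tested on simulated data. Exact 95% intervals came from SciPy 1.17.1, and figures from Matplotlib 3.10.9. Positions are on mm9, counted from 1. Chromosomes 1 to 19 and X entered the genome densities, over the span from first to last peak. The gene table on GRCm38.p6 gave gene order alone. The gene windows are taken as given and were not checked against an mm9 annotation. Within a locus, the text names the widest peak of each class and the longest run of restricted peaks, plus other features chosen after their values were seen. The genes, windows and lists were chosen with earlier results of these data known.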

Additional observations from a re-analysis of the deposited data

How the results depend on the processing

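Each locus kept its side of the background under each of the 8 alternatives run on it (overlap, peak width, list length, windows, joining of close peaks), 4 loci above it and Mrc1 and Pecam1 below. With close peaks joined, Pecam1 lay barely below, at 32.1% against 32.5%. The main intervals of all loci but Stab2 included the background, so the counts do not settle the side of those loci. Endothelial-only shares ranged from 48.5% to 69.4% at Stab2, 45.5% to 72.7% at Cdh5, 44% to 65% at Stab1, 44.4% to 70.6% at Lyve1, 21.9% to 41.2% at Pecam1 and 13.3% to 27.6% at Mrc1. The background itself moved with the setting, from 27.7% to 49.9%. The top of each range came from the shortened Kupffer list, where the background was 49.9%. With the Kupffer list reduced to its widest peaks, as many as in the endothelial list, the 6 loci had 67 Kupffer-only peaks and an endothelial-only share of 54.4%, and Stab2 one of 69.4%, against a background of 49.9%; that setting removes Kupffer peaks by construction. Leaving out a locus at a time gave 34.4% (without Stab2) to 45.2% (without Mrc1). Of 168 counts, 24 moved by more than 1.5 times, most of them at single loci. No paired analysis was possible because neither list separates the libraries, and for the same reason no replicate was left out. With no score per peak, width stood in for a stricter threshold. Depth limits what a missing peak means.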
